A study of Mus musculus with 10 samples.

Results

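Macrophages are the resident phagocytes of the lung, and 10 genes that mark them were followed in the lungs of mice fed either of 2 high-fat diets. The genes were Lyz1, Lyz2, Marco, Mrc1, Ear2, Cd68, Csf1r, Mpeg1, Ctss and Cybb, chosen by symbol as known macrophage genes, and all 10 had a row among the 24059 gene symbols of the count table. RNA came from whole lung perfused with PBS, taken from female C57Bl/6 mice that were 14 weeks old after airway reactivity testing. The FO group (5 mice) had eaten a diet rich in n-3 polyunsaturated fatty acids from menhaden fish oil with some corn oil for 8 weeks, and the CO group (5 mice) a diet rich in saturated fat from coconut oil with olive and corn oil. Both diets were semipurified and contained added cholesterol, and the samples held no group on ordinary chow. The comparison asks whether the diet, which differed in more than the kind of fat, was accompanied by a different level of macrophage transcripts in the lung.

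Alveolar macrophages live in the air spaces, where they take up surfactant, particles and microbes, and interstitial macrophages lie in the tissue around vessels and airways. Both depend on growth factor signals from neighbouring cells, carry receptors for sugars and polyanions on dead cells and microbes, digest what they take up with lysosomal proteases, and kill microbes with lysozyme and with oxidants made by the phagocyte NADPH oxidase. None of the genes is restricted to macrophages in whole lung. Lysozyme is also made by alveolar type 2 cells and neutrophils, Cybb and Ctss are used by several other leukocytes, and Mrc1 is carried by lymphatic endothelium.

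Between 229766 and 1124963 reads per mouse had been counted on genes, of which Rn45s, the precursor of ribosomal RNA, took 21.8% (CO mouse 4) to 87.0% (FO mouse 3). Outside Rn45s, CO mouse 1 had the fewest counts (45177) and FO mouse 2 the most (473254). The median was 235781 in FO and 136211 in CO mice, so summed raw counts of the diets are not at equal depth. FO mouse 2 and CO mouse 5 stood apart from the rest, with the nuclear RNA Malat1 at 8.53% and 6.15% of the counts outside Rn45s against at most 1.05% in the other mice, so member values are also given without both. The 10 genes together had 2679 counts, and 72.7% of these fell on Lyz2 and Ctss. Their share of the counts outside Rn45s was 0.137%, 0.175%, 0.256%, 0.126% and 0.135% in FO mice 1 to 5 and 0.0863%, 0.122%, 0.123%, 0.0606% and 0.206% in CO mice 1 to 5. The ranges overlapped, since CO mouse 5 exceeded all FO mice but mouse 3, while CO mice 1 and 4 had the lowest shares. The exact 95% intervals reached from 0.212% to 0.306% in FO mouse 3 and from 0.0518% to 0.0704% in CO mouse 4, and they cover counting error only. Levels are given as CPM, counts scaled to the size of each library after TMM normalization, and 3 counts were taken as the smallest signal that a mouse could show.

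The diets did not separate the mice by any of the 10 genes. Mrc1, Lyz2 and Ctss had higher means in the FO group, but every gene had FO mice inside the range of the CO mice. No fold change of a member passed adjustment for multiple testing. With edgeR's quasi-likelihood test, 2438 genes passed the default filter on low counts and 71 (2.91%) were below an unadjusted p-value of 0.05. Of the 4 members that passed this filter (Lyz2, Mrc1, Ctss and Cybb) none was past that threshold, and the smallest Benjamini-Hochberg adjusted p-value among them was 0.998. The other 6 members did not pass and were read from the same test on the 14161 genes with any count, of which 587 (4.15%) were below 0.05. In that fit 1 of 9 members with a fold change, Cd68, was past the threshold, with an adjusted p-value of 0.905. Ear2 was never above 3 counts and was given no fold change. The groups of 0 members were free of overlap, against 49 (0.346%) of the 14161 genes. The fold changes of the 9 members were all positive in the any-count fit with a median of 0.38 on the log2 scale, where 54.0% of all genes were positive with a median of 0.05. Lyz1, the smallest of the 9, had a lower mean CPM with FO than with CO. Under scaling by library size alone, which moved the median of all tested genes to -0.55, Lyz1, Lyz2, Csf1r, Ctss and Cybb turned negative. In whole lung RNA, more macrophages and more RNA per macrophage cannot be told apart.

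**Figure D1:**
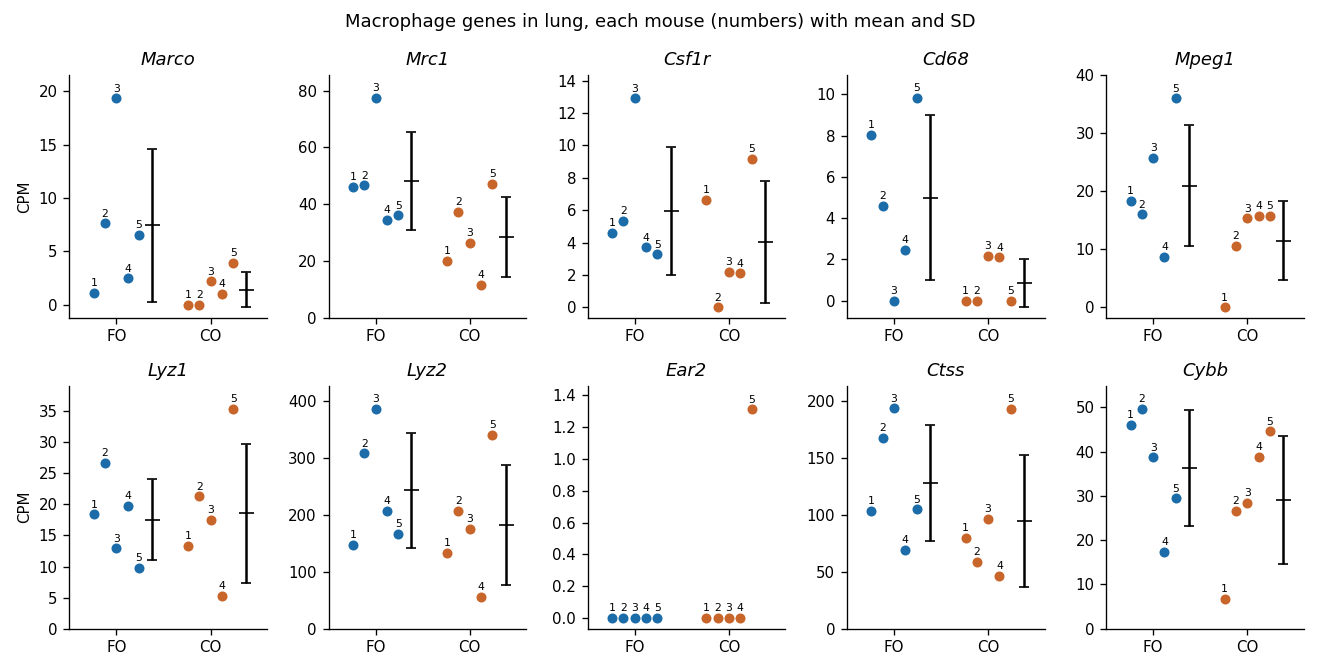
Level of each macrophage gene in CPM on the vertical axis of each panel, in the 5 FO mice (blue) and 5 CO mice (orange), numbered by mouse, with the mean and SD of each group in black (left out for Ear2). The groups overlap in every panel, and FO mouse 3 is the highest mouse for 5 of the 9 genes with a fold change.

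The surface receptors differed widely in abundance. Mrc1, the mannose receptor (chr2:14229392-14332057, plus strand, GRCm38), takes up glycoproteins with mannose at their ends. Its level was 46.0, 46.6, 77.4, 34.6 and 36.0 CPM in FO mice 1 to 5 and 19.9, 37.3, 26.3, 11.5 and 47.2 CPM in CO mice 1 to 5. All FO mice were above the CO median, but CO mouse 5 was higher than 4 of the 5 FO mice. On average it stood at 48.1 ± 17.3 CPM with FO and at 28.5 ± 14.1 CPM with CO (SD, n = 5 each). Mrc1 had a log2 fold change of 0.68 ± 0.37 (SE, edgeR, unadjusted p = 0.0805, adjusted p = 0.998), and the two-sided exact permutation test, run over every possible assignment of diets to mice, gave p = 0.103. Without CO mouse 5 the log2 fold change was 1.10 (unadjusted p = 0.0105), and without both FO mouse 2 and CO mouse 5 it was 1.10 as well (unadjusted p = 0.0157). Without CO mouse 4 it was 0.40 (unadjusted p = 0.253).

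Marco, a scavenger receptor for bacteria and inhaled particles that marks alveolar macrophages (chr1:120474538-120505024, minus strand), was close to the limit of detection. It had 1, 10, 3, 2 and 2 counts in FO mice 1 to 5 and 0, 0, 1, 1 and 3 counts in CO mice 1 to 5, so that only FO mouse 2 was above 3 counts. In CPM these were 1.15, 7.64, 19.4, 2.47 and 6.55 against 0, 0, 2.19, 1.05 and 3.94, and the thinly sequenced FO mouse 3 was highest through 3 counts. The log2 fold change of 1.41 ± 0.87 was not past the threshold (edgeR, unadjusted p = 0.107, adjusted p = 0.905), while the two-sided exact permutation test on log2 CPM gave p = 0.0476 without adjustment. Without CO mouse 5 it was 2.12 (unadjusted p = 0.0491), and without both FO mouse 2 and CO mouse 5 it was 1.84 (unadjusted p = 0.123). The ratio of the summed counts per summed library after TMM scaling was 2.62, with a 95% counting interval from 0.938 to 9.03 that leaves out the spread between mice.

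Csf1r, on chromosome 18, encodes the receptor for the growth factors CSF1 and IL34 on which macrophages depend. It had 4, 7, 2, 3 and 1 counts in FO mice 1 to 5 and 1, 0, 1, 2 and 7 counts in CO mice 1 to 5. In CPM these were 4.60, 5.35, 12.9, 3.71 and 3.27 against 6.65, 0, 2.19, 2.10 and 9.19, so that CO mice 2, 3 and 4 were below all FO mice, while CO mice 1 and 5 were above all of them but mouse 3 (12.9 CPM from 2 counts). Its log2 fold change was 0.23 ± 0.77 (edgeR, unadjusted p = 0.764) and turned negative without CO mouse 4 (-0.023), while it was 1.09 without CO mouse 5 (unadjusted p = 0.253) and 1.05 without both FO mouse 2 and CO mouse 5 (unadjusted p = 0.305). Exons of Hmgxb3 on the opposite strand cover 15.1% of the exon bases of Csf1r, and the strand setting of the counting is not given in the sources used here, so these few counts could include reads from that gene.

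The genes of the endosomes and lysosomes included the member with the largest fold change and one of the most abundant members. Cd68 encodes a heavily glycosylated membrane protein of late endosomes and lysosomes (chr11:69664213-69666153, minus strand). It had 7, 6, 0, 2 and 3 counts in FO mice 1 to 5 and 0, 0, 1, 2 and 0 counts in CO mice 1 to 5. FO mice 1 and 2 were the only mice above 3 counts, and FO mouse 3 had none. In the any-count fit its log2 fold change was 2.00 ± 0.95 (edgeR, unadjusted p = 0.0347, adjusted p = 0.905), and the two-sided exact permutation test gave p = 0.0635. The ratio of summed counts per summed library after TMM scaling was 4.37, with a 95% counting interval from 1.27 to 23.1. This interval leaves out the spread between mice. The p-value rose above 0.05 when FO mouse 1 (0.0981), FO mouse 5 (0.0585), CO mouse 1 (0.0502) or CO mouse 5 (0.110) was left out, and it was 0.110 without both FO mouse 2 and CO mouse 5 (log2 fold change 1.66).

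Mpeg1 encodes perforin-2, a pore-forming protein that acts on engulfed bacteria (chr19:12460779-12465283, plus strand). Its level was 18.4, 16.1, 25.8, 8.65 and 36.0 CPM in FO mice 1 to 5 and 0, 10.7, 15.3, 15.7 and 15.7 CPM in CO mice 1 to 5. The other 4 FO mice were above all CO mice, FO mouse 4 was below 4 of the CO mice, and CO mouse 1 had no count. Its log2 fold change was 0.47 ± 0.47 (edgeR, unadjusted p = 0.314, two-sided exact permutation p = 0.183). It was 0.27 without FO mouse 5, 0.30 without CO mouse 1, 0.73 without FO mouse 4 and 0.62 without both FO mouse 2 and CO mouse 5, with unadjusted p from 0.137 to 0.586.

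Ctss, which encodes cathepsin S, a cysteine protease that also trims the invariant chain of MHC class II molecules (chr3:95526786-95556403, plus strand), had the second highest level. It was 104, 167, 194, 69.2 and 105 CPM in FO mice 1 to 5 and 79.7, 58.6, 96.4, 46.2 and 193 CPM in CO mice 1 to 5. CO mouse 5 was nearly as high as FO mouse 3. The other CO mice were below FO mice 1, 2, 3 and 5, and CO mice 2 and 4 were below FO mouse 4 as well. The means were 128 ± 51.1 CPM and 94.8 ± 58.2 CPM (SD, n = 5 each), with a log2 fold change of 0.35 ± 0.36 (edgeR, unadjusted p = 0.352, two-sided exact permutation p = 0.270). It rose to 0.85 without CO mouse 5 (unadjusted p = 0.0185), was 0.68 without both FO mouse 2 and CO mouse 5 (unadjusted p = 0.0493) and fell to 0.14 without CO mouse 4.

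**Figure D2:**
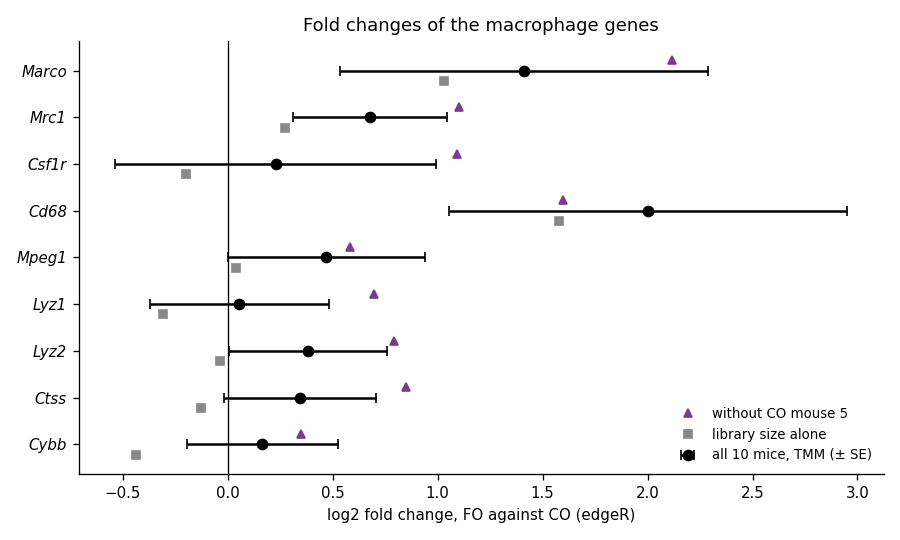
The log2 fold change between FO and CO mice on the horizontal axis for the 9 members with one, as fitted on all 10 mice with its SE (black), without CO mouse 5 (triangles) and with scaling by library size alone (squares, no SE drawn). The black points lie between 0.06 (Lyz1) and 2.00 (Cd68), CO mouse 5 moves 8 of the 9 upwards when it is left out, and library size alone lowers all 9.

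Mice possess a pair of lysozyme genes, and both cut the peptidoglycan of bacterial cell walls. Lyz2 is the form of macrophages and other myeloid cells, and Lyz1 is best known from the Paneth cells of the intestine. They are neighbours on the minus strand of chromosome 10, with Lyz2 at chr10:117277331-117282321 and Lyz1 at chr10:117287797-117292868 (GRCm38, GENCODE M21), separated by 5475 bases. Their coding sequences have the same length of 444 bases and differ at 22 of them. The first 120 coding bases are shown because they hold 11 of these differences, marked in capitals, and therefore the letters by which a read can be assigned to one gene or the other:
Lyz1: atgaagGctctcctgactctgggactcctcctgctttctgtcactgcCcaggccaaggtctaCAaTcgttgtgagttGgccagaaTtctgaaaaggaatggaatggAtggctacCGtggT
Lyz2: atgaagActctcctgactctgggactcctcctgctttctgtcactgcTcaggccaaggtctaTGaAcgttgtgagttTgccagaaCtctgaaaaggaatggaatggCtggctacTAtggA
The longest run of coding bases without a difference is 118, and over the whole transcripts 195 of the 1214 stretches of 50 bases in Lyz1 (16.1%) and of the 1267 in Lyz2 (15.4%) also occur in the other gene.

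The sequences just upstream of the 2 genes are alike as well. The 250 bases before each transcription start as RefSeq places it (GRCm38.p6) are shown because the same kind of window precedes one gene with 118 counts and one with 1263 over all mice, and capitals mark bases without an identical partner in an end-to-end alignment:
Lyz1, chr10:117292869-117293118, minus strand: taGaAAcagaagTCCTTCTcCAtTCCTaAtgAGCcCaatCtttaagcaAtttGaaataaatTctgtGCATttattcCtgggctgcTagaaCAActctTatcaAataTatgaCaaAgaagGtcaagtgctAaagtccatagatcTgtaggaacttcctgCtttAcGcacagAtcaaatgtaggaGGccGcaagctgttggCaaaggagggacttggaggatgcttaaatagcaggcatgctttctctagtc
Lyz2, chr10:117282273-117282522, minus strand: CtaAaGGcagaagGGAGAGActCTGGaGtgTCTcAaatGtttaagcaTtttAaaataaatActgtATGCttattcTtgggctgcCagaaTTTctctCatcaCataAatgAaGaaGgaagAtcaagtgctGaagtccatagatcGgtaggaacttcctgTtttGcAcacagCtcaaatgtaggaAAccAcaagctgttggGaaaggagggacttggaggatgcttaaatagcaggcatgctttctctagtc
In this alignment 200 bases (80.0%) were matched, and the last 50 bases before the start were the same in both. The starts depend on the annotation. The RefSeq window of Lyz1 ends where the GENCODE gene begins, whereas that of Lyz2 reaches 49 bases into the GENCODE gene, whose start lies further upstream. RefSeq windows were present for 9 of the 10 members.

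Lyz2 was the most abundant of the 10 genes. Its level was 147, 309, 387, 208 and 167 CPM in FO mice 1 to 5 and 133, 208, 175, 55.6 and 341 CPM in CO mice 1 to 5. CO mouse 5 had the second highest level of all mice and CO mouse 4 the lowest, so the groups overlapped. Mean levels were 244 ± 102 CPM with FO and 183 ± 105 CPM with CO (SD, n = 5 each). Lyz2 had a log2 fold change of 0.38 ± 0.37 (edgeR, unadjusted p = 0.320, adjusted p = 0.998, two-sided exact permutation p = 0.333), with 0.79 without CO mouse 5 (unadjusted p = 0.0403) and 0.13 without CO mouse 4. Without both FO mouse 2 and CO mouse 5 it was 0.67 and not past the threshold (unadjusted p = 0.0728).

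Lyz1 had lower levels of 18.4, 26.7, 12.9, 19.8 and 9.82 CPM in FO mice 1 to 5 and 13.3, 21.3, 17.5, 5.25 and 35.4 CPM in CO mice 1 to 5. The highest and the lowest value both belonged to CO mice, numbers 5 and 4, and the mean was 17.5 ± 6.55 CPM with FO and 18.6 ± 11.2 CPM with CO (SD, n = 5 each). A log2 fold change of 0.06 ± 0.43 (edgeR, unadjusted p = 0.896) was the smallest of the members, and its sign turned without FO mouse 2 (-0.13), CO mouse 1 (-0.024) or CO mouse 4 (-0.25). It was 0.70 without CO mouse 5 (unadjusted p = 0.178) and 0.52 without both FO mouse 2 and CO mouse 5 (unadjusted p = 0.340).

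A ratio within a mouse does not depend on how libraries are scaled. Over all mice Lyz1 made up 8.54% of the lysozyme counts. Its share was 11.1%, 7.97%, 3.23%, 8.70% and 5.56% in FO mice 1 to 5 and 9.09%, 9.30%, 9.09%, 8.62% and 9.41% in CO mice 1 to 5. The CO shares lay within 1 percentage point of each other while the FO shares spread to both sides of them. With only 22 to 439 lysozyme counts per mouse, the exact 95% interval reached from 0.393% to 11.2% in FO mouse 3 and from 6.29% to 13.4% in CO mouse 5. The means of 7.31% ± 3.02 and 9.10% ± 0.302 (SD, n = 5 each) differed by -1.79 percentage points (two-sided exact permutation test, p = 0.278). Without FO mouse 1 the difference was -2.74 percentage points (exact p = 0.0159), and without FO mouse 3 it was -0.77 (exact p = 0.556).

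**Figure D3:**
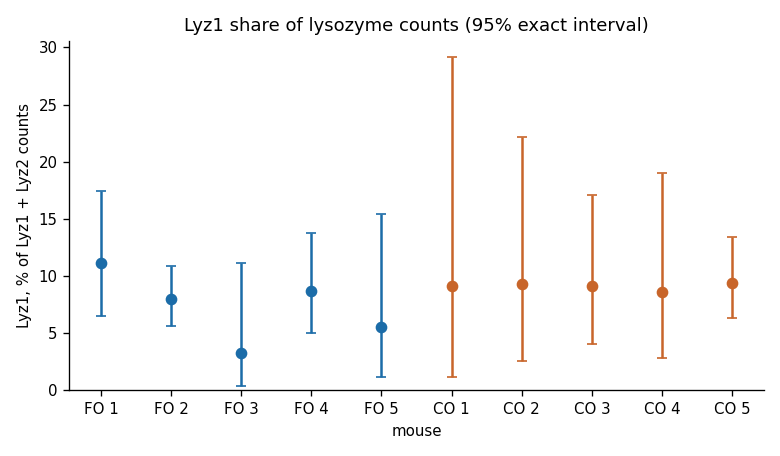
Share of Lyz1 in the summed counts of Lyz1 and Lyz2 on the vertical axis for each mouse (FO blue, CO orange), with exact 95% intervals for counting error. The shares range from 3.23% in FO mouse 3 to 11.1% in FO mouse 1, and the intervals of all mice overlap.

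Ear2 belongs to the eosinophil-associated ribonucleases, a rodent family of secreted antimicrobial proteins, and is known from alveolar macrophages (chr14:44102654-44103534, plus strand). It had 1 count in CO mouse 5 and 0 counts in the other 9 mice, which allows up to 3 counts per mouse, or a share of the counts outside Rn45s between 0.000634% in FO mouse 2 and 0.00664% in CO mouse 1. No difference was detectable at this depth. The gene is hard to count, since 278 of its 670 transcript stretches of 50 bases (41.5%) occur in other genes, most often in Ear10 (174). Their first 120 coding bases are shown because only 5 differ (in capitals), out of 14 differences over 468 coding bases (97.0% identity):
Ear2: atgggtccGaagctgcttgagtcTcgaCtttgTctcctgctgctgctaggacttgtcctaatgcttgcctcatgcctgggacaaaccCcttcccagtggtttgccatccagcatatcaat
Ear10: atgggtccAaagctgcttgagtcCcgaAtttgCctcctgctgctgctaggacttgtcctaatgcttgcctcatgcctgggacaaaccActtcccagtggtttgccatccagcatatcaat
Of 11 other genes of the ribonuclease family with a row, 9 were listed at 0 in every mouse, Ear10 among them, and the summed level of the remaining 2 was at most 6.65 CPM in a mouse.

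Cybb, on the X chromosome (chrX:9435252-9487771, minus strand), encodes gp91phox, the catalytic subunit of the phagocyte NADPH oxidase. Its level was 46.0, 49.7, 38.7, 17.3 and 29.5 CPM in FO mice 1 to 5 and 6.65, 26.6, 28.5, 38.8 and 44.6 CPM in CO mice 1 to 5. CO mice 4 and 5 were above FO mice 4 and 5, and CO mouse 1 was lowest through a single count. For Cybb the log2 fold change was 0.17 ± 0.36 (edgeR, unadjusted p = 0.649, two-sided exact permutation p = 0.460), and it was -0.030 without FO mouse 2, 0.35 without CO mouse 5 or FO mouse 4 and 0.19 without both FO mouse 2 and CO mouse 5 (unadjusted p = 0.626).

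Compared per kilobase of exon, the mean levels over all 10 mice ran from Lyz2 (162 CPM per kb) and Ctss (81.9) through Lyz1 (14.3), Mrc1 (6.01), Cybb (5.62), Mpeg1 (3.75), Cd68 (2.32) and Marco (2.30) to Csf1r (0.865). Lyz2 exceeded Ctss, and Ctss exceeded Lyz1, in 10 of 10 mice. Lyz1 exceeded Mrc1, and Cybb exceeded Mpeg1, in 9 of 10 mice. Mrc1 and Cybb did not differ beyond their spread (higher Mrc1 in 5 of 10 mice), nor did Cd68 and Marco (5 of 10). FO mouse 3 was highest for 5 of the 9 members with a fold change, although it had only 46470 counts outside Rn45s, but it was at 0 for Cd68 and eighth of the 10 mice for Lyz1. CO mice 1 and 4 were each lowest for 4 and CO mouse 2 for 3, with ties at 0 counts for Marco and Cd68 included. FO mouse 3 also had the lowest TMM factor of all mice (0.448) and CO mouse 4 the highest (3.21). The part of these factors in the ranks was not tested.

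Markers of the other cells that carry these genes were read beside them. Of 10 alveolar type 2 cell markers, the surfactant genes among them, 0 of the 8 that passed the filter were past the threshold, and 8 of 8 had positive fold changes with a median of 0.34 on the log2 scale, against 0.00 for all genes tested. Sftpc, which encodes surfactant protein C, had a log2 fold change of 0.45 ± 0.29 (edgeR, unadjusted p = 0.129). The summed level of the 10 markers was 1738 to 3739 CPM with FO and 1090 to 3011 CPM with CO. The 3 mice with the most Lyz2 (FO mouse 3, CO mouse 5 and FO mouse 2) were also the 3 with the highest type 2 cell marker sum, and CO mouse 4 was lowest in both. These are 10 points that share their scaling and depth, and the part of type 2 cells in the lysozyme values was not tested.

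**Figure D4:**
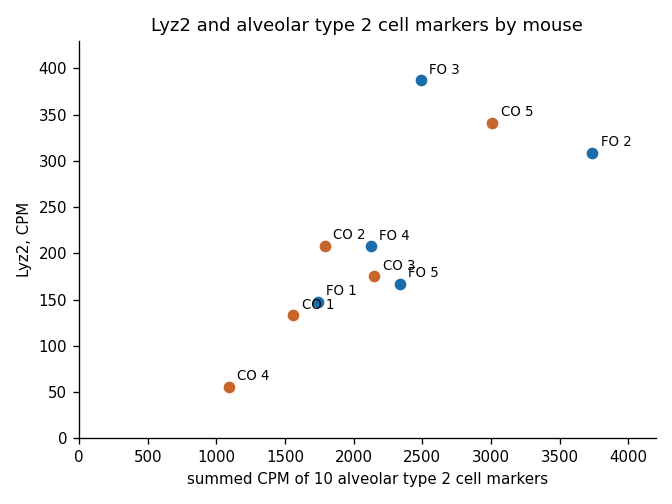
Lyz2 in CPM (vertical axis) against the summed CPM of 10 alveolar type 2 cell markers (horizontal axis), 1 point per mouse (FO blue, CO orange). FO mouse 2, FO mouse 3 and CO mouse 5 lie at the upper right and CO mouse 4, with 55.6 CPM of Lyz2 and a sum of 1090 CPM, at the lower left.

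In the any-count fit 6 of the 10 neutrophil markers with a count were past the unadjusted threshold, all higher in the FO group, where 4.15% of all genes were past it. The marker lists were chosen with earlier results of these data known. From its own differential expression, the paper names S100a8, S100a9, Retnlg and Mmp8 of this list, and also Acta2. The counts of markers past the threshold are therefore no independent result. S100a9, a subunit of the calcium-binding protein calprotectin, had 22.9 to 159 CPM in FO mice and 5.33 to 18.4 CPM in CO mice (default filter, log2 fold change 2.27 ± 0.48, edgeR unadjusted p = 0.000155, adjusted p = 0.377). In the any-count fit its log2 fold change was also 2.27 (edgeR unadjusted p = 1.4e-09, adjusted p = 1.99e-05). It was the only gene of the 14161 that passed adjustment there. The two-sided exact permutation test gave p = 0.00794 for S100a9, DESeq2 unadjusted p = 5.2e-06, and edgeR with library size alone 0.0118. S100a8, of the same list, had a log2 fold change of 1.62 in the any-count fit (edgeR unadjusted p = 2.1e-05, adjusted p = 0.149). Its exact permutation p was 0.0317, and with library size alone its edgeR p was 0.0530. The summed level of the list was 57.3 to 318 CPM with FO and 33.2 to 58.6 CPM with CO, with FO mouse 2 inside the CO range, while Elane and Mpo, which mark immature neutrophils, were listed at 0. FO mouse 1 had the highest neutrophil sum, whereas its Lyz2 level was eighth of the 10 mice. The part of neutrophils in the values of Lyz2, Cybb and Ctss was not tested. Lymphocyte markers (0 of 14 with a count past the threshold, any-count fit) and dendritic cell markers (0 of 8) were thinly counted in both groups. Of 4 endothelial markers that passed the default filter, 1 was past the threshold (Lyve1, which lymphatic endothelium shares with some interstitial macrophages). With the same filter the threshold was passed by 0 of 5 alveolar type 1 cell markers, 0 of 5 airway epithelial markers and 1 of 7 fibroblast and smooth muscle markers (Acta2, smooth muscle actin, log2 fold change 0.99, edgeR unadjusted p = 0.0144). Only 1 red cell or platelet marker and 1 cardiac muscle marker were tested there, neither past it, and the hemoglobin genes were listed at 0. Alas2, the red cell marker tested, had mean levels of 53.8 CPM in FO and 32.8 CPM in CO mice. Whether genes listed at 0 were absent from the lung or left uncounted was not tested. In the any-count fit the threshold was passed by 2 of 8 cardiac muscle markers (Tnnt2 and Tnni3, sarcomere proteins, both higher, unadjusted p = 0.00649 and 0.0132), 1 of 2 red cell or platelet markers (higher), 2 of 9 fibroblast and smooth muscle markers (both higher, Myh11, smooth muscle myosin, with unadjusted p = 0.00318), 1 of 6 airway markers (lower), 0 of 5 type 1 cell markers and 0 of 8 endothelial markers. Tnnt2 and Myh11 were not past it without FO mouse 2 (0.62 and -0.15) or without CO mouse 4. In the two-sided exact permutation test over all mice they had p = 0.357 and 0.556.

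Other macrophage-related genes were read from 8 lists, 117 genes in all without the members, of which 114 had a row. After the default filter 30 remained, and 4 of these were past the unadjusted threshold, all higher in the FO group (Fabp4, Lyve1, Ccl6 and Ctsd), with a median log2 fold change of 0.23 over the 30 against 0.00 over all genes tested. In the same fit 2.91% of all genes were past it, 41 of the 71 of them higher. With scaling by library size alone 0 of these genes were past it, and the fold changes were 0.22 for Fabp4 (unadjusted p = 0.733), 0.16 for Lyve1 (0.811), 0.31 for Ccl6 (0.637) and 0.39 for Ctsd (0.557). In the any-count fit 8 of 98 were past it, 7 higher and 1 lower, where 4.15% of all genes were. None passed adjustment.

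Among 20 alveolar macrophage markers, 3 passed the filter and 1 was past the threshold. Fabp4, a lipid carrier of fat cells, capillary endothelium and alveolar macrophages, had 28.8, 51.2, 71.0, 104 and 49.1 CPM in FO mice 1 to 5 and 13.3, 42.6, 24.1, 46.2 and 14.4 CPM in CO mice 1 to 5. Its log2 fold change was 1.05 ± 0.40 (edgeR, unadjusted p = 0.0166, adjusted p = 0.998, two-sided exact permutation p = 0.0397), and the call was lost without FO mouse 4 (0.66, p = 0.115) and without CO mouse 5. Pparg, a lipid-sensing transcription factor that alveolar macrophages need to mature, had 28 counts in FO and 5 in CO mice. On average these were 6.73 and 2.41 CPM, and 19 counts were in FO mouse 2. In the any-count fit its log2 fold change was 1.76 (edgeR unadjusted p = 0.0295, exact permutation p = 0.286). Spp1, which encodes osteopontin, had 44 and 13 counts, on average 12.2 and 4.03 CPM. Its log2 fold change in that fit was 1.30 (edgeR unadjusted p = 0.0307, exact permutation p = 0.198). FO mouse 4 held 28 of the Spp1 counts (0.25 without it). The summed level of the list was 307 to 570 CPM with FO and 170 to 472 CPM with CO, and Krt79 was listed at 0.

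Of the 18 interstitial macrophage markers, 8 passed the filter and 1 was past the threshold. Lyve1, a hyaluronan receptor, had 39.3 to 91.7 CPM in FO mice and 31.5 to 50.4 CPM in CO mice (log2 fold change 0.62 ± 0.29, edgeR unadjusted p = 0.0452, exact permutation p = 0.0556), and the call was lost in 7 of the 10 fits with 1 mouse left out, with the lowest fold change (0.36) without FO mouse 2. Lyve1 was not past it in the any-count fit (unadjusted p = 0.0556) or with DESeq2 (unadjusted p = 0.0685). Stab1, a scavenger receptor that was the 1 gene lower in the any-count fit, had 1 count in the FO and 6 in the CO group, never above 3 in a mouse.

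Of the pan-macrophage and monocyte genes, 7 passed the filter and 1 was past the threshold. Ccl6, a chemokine of myeloid cells, had 66.7, 49.7, 96.8, 61.8 and 72.0 CPM in FO mice 1 to 5 and 46.5, 37.3, 43.8, 25.2 and 44.6 CPM in CO mice 1 to 5. All FO mice were above all CO mice, and the log2 fold change was 0.79 ± 0.28 (edgeR, unadjusted p = 0.0110, adjusted p = 0.998), with the smallest p-value that 5 against 5 mice allow in the two-sided exact permutation test (0.00794). It was past the threshold in 10 of 10 fits with 1 mouse left out (0.63 to 0.90). Fcgr1, a high-affinity antibody receptor, had 4 counts in the FO and 0 in the CO group, and Csf2rb, Ly6c2 and Nr4a1 were listed at 0.

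Of the 18 lysosomal proteases and membrane proteins, 8 passed the filter and 1 was past the threshold. Ctsd, which encodes the aspartic protease cathepsin D, had 46.0, 56.6, 316, 51.9 and 68.8 CPM in FO mice 1 to 5 and 53.2, 21.3, 50.4, 36.7 and 45.9 CPM in CO mice 1 to 5. FO mouse 3 stood far above the others, and the log2 fold change of 1.14 ± 0.48 (edgeR, unadjusted p = 0.0289, exact permutation p = 0.0556) was 0.37 without it (unadjusted p = 0.216). Calls were also lost without CO mouse 2 or CO mouse 4.

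The partners of single members gave few values. Among the ligands of Csf1r and the factors of the lineage, 2 of 10 genes passed the filter and neither was past the threshold. Among the other subunits of the oxidase that Cybb belongs to, only Rac1, a GTPase found in most cells, passed the filter, with 164 ± 55.1 CPM in FO and 140 ± 58.5 CPM in CO mice (log2 fold change 0.20 ± 0.29, edgeR unadjusted p = 0.505), and Ncf4 and Rac2 were listed at 0. Among the 14 scavenger and pattern receptors, 2 passed the filter and 0 were past the threshold.

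**Figure D5:**
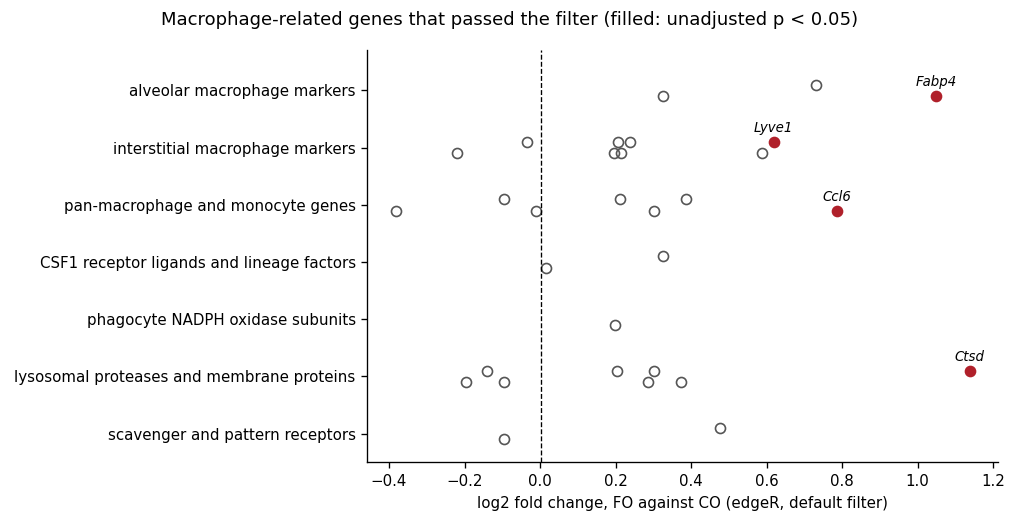
The log2 fold change between FO and CO mice on the horizontal axis for every macrophage-related gene that passed the default filter, by list (no Ear family gene passed). Filled points are the 4 genes with an unadjusted p-value under 0.05 (Fabp4, Lyve1, Ccl6 and Ctsd, 0.62 to 1.14), open points the others, and the dashed line is the median of all 2438 genes tested. Points are offset vertically only to keep them apart.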

How the data were processed

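Lung RNA of 10 mice (5 per diet, 1 library each) was analysed, grouped by the sample labels. The authors deposited raw read counts per gene symbol, without normalization. Per the labels' processing notes and the paper, single-end reads were aligned with STAR 2.4.0f1 to mm10, SAMtools 0.1.19 was used, and reads were counted with htseq-count. Libraries were made with TruSeq RNA v2 or riboZero kits, and which mouse had which kit, the annotation and the strand setting are not given in the sources used here, so the part of the kit was not tested. Totals were 229766 to 1124963 counts per mouse, with 3 counts taken as the floor.

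The quasi-likelihood test of edgeR 4.0.16 (R 4.3.3) was applied to the counts (TMM, default filter at 10 counts and 15 in total, common dispersion 0.0956). The threshold was an unadjusted p-value under 0.05, as in the study, with Benjamini-Hochberg adjustment over all genes tested. SE is the log2 fold change divided by the square root of F. Exact permutation tests enumerated all assignments (NumPy 2.4.6) on log2 CPM with a prior count of 2, and on percentages for the Lyz1 share. Exact intervals of shares came from SciPy 1.17.1. CPM used effective libraries that include Rn45s. Permutation p-values rest on the spread between these mice. Those of edgeR also depend on the genes fitted together. With a log2 fold change of 2.27 in both fits, S100a9 had edgeR unadjusted p = 0.000155 (default filter) and 1.4e-09 (any count). The alternatives were RLE factors, library size alone, DESeq2 1.42.0, other filters, robust estimation, limma-voom 3.58.1 with sample weights, leaving out Rn45s, the replicate number as a block, a prior count of 0.5, pooled lysozyme counts and each mouse left out. DESeq2 on any-count genes and leaving out FO mouse 2 with CO mouse 5 were added after seeing the data. Code was tested on simulated data.

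Gene models came from GENCODE M21 (GRCm38, the build that mm10 names) and upstream sequences from RefSeq, aligned with Biopython 1.88 (match 1, mismatch -1, gap opening -2, gap extension -1). The members and the 18 lists were chosen with earlier results of these data known. Named genes were all members and, from each macrophage-related list, up to 4 genes past the threshold. A gene was judged in the default fit where it passed the filter and otherwise in the any-count fit. Lists without such a gene gave their most abundant that passed the filter. From other lists genes past the threshold or among the 2 most abundant could be named, and not all of these are given. Malat1, Rn45s and genes listed at 0 fall outside that rule and were named after their values were seen.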

Additional observations from a re-analysis of the deposited data

Results flagged for a closer look

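Each member in each diet, the Lyz1 share and the share of the members in the counts outside Rn45s gave 24 groups of 5 mice, of which 2 held a mouse far from the others, and chance would give about 1.2. The first was Mpeg1 in CO mouse 1, with 0 counts and 1.75 log2 CPM (prior count of 2), against 3.81 in the next lowest CO mouse. The gap was 0.822 of the range of the group, above the limit of 0.71 for 5 values. CO mouse 1 had 45177 counts outside Rn45s, the fewest of all mice, and the role of depth in this value was not tested. The second was Ear2 in CO mouse 5, at 2.22 log2 CPM from 1 count, while the other 4 CO mice had 0 counts (1.75). With 4 mice tied at 0 counts any count in the remaining mouse would be flagged, so the chance figure does not cover this group.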

How the results depend on the processing

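The number of genes past the threshold, 71 with the default filter, was 36 with library size alone, 587 with any count, 15 with at least 10 counts in every mouse, 117 with limma-voom, 138 with DESeq2 on any-count genes and 54 to 154 with 1 mouse left out (154 without FO mouse 2). The number of members past it, 1 as reported (Cd68), was 0 with library size alone, with DESeq2 under either filter and with at least 10 counts in every mouse, 2 without both FO mouse 2 and CO mouse 5 (Mrc1 and Ctss), and 0 to 4 with 1 mouse left out. The 4 were Lyz2, Marco (any-count fit), Mrc1 and Ctss without CO mouse 5, and the number was 0 without FO mouse 1, FO mouse 5 or CO mouse 1. Without CO mouse 5, 65 genes of the whole table were past the threshold with the default filter. The median log2 fold change of all any-count genes was then 0.14, against 0.05 with all mice. The 4 macrophage-related genes past it became 0 with library size alone, 8 with any count, 0 with at least 10 counts in every mouse and 2 to 5 with 1 mouse left out (2 without FO mouse 3, CO mouse 4 or CO mouse 5). The difference in Lyz1 share ran from -2.74 (without FO mouse 1) to -0.77 (without FO mouse 3) percentage points. Signs turned with library size alone for Lyz1 (-0.31), Lyz2 (-0.035), Csf1r (-0.20), Ctss (-0.13) and Cybb (-0.44), and with DESeq2 for Lyz1 (-0.010 under either filter). With 1 mouse left out Lyz1 ranged from -0.25 to 0.70, Csf1r from -0.023 to 1.09 and Cybb from -0.030 to 0.35. The share of calls that were higher in FO mice was 57.7% in the reported fit and 2.78% with library size alone. That setting scales by the total counts of each library, Rn45s included, and leaves out the TMM factors. The cause of the change was not tested. Of 182 alternative fold changes of members, 154 kept direction and side of the threshold.

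With the replicate number as a block, 55 genes, 1 member (Mrc1, 0.81, unadjusted p = 0.0492) and 3 related genes were past the threshold, and Cd68 was not (1.85, unadjusted p = 0.109). Same-numbered mice were different animals whose deviations from the mean of their diet correlated at -0.12 on average (-0.41 to 0.03 over 5 pairs, 0 above 0.1). Centring within each diet largely fixes the average of the other pairs (0.03) once this one is known. The averages are therefore no independent comparison, and 5 pairs cannot decide whether the numbers pair the mice. With sign flips within numbers the Lyz1 share difference was -1.79 percentage points (exact p = 0.375).

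Depth limits Marco, Cd68, Csf1r and Ear2 most, for which the majority of mice had at most 3 counts. Library preparation, strand and the share of cell types in each lung were not known, and 5 mice per diet left standard errors of 0.36 to 0.95 on the log2 scale.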
